A study of Mus musculus with 10 samples.

Results

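Hepatocytes are polarized cells that move bile acids from blood to bile. Their basolateral membrane faces the blood sinusoids, where Slc10a1 and Slco proteins take up bile acids and other organic anions. Their canalicular membrane faces the bile canaliculus, where Abcb11 exports bile salts against a steep gradient and Abcb4, Abcc2 and Atp8b1 handle phospholipids, conjugated anions and membrane lipid order. A further group on the basolateral side, Abcc3, Abcc4 and the Slc51a-Slc51b heterodimer, returns bile acids and their conjugates to blood and is known to be used more when flow into bile is impaired. In this liver RNA-seq experiment, 10 genes of these 3 roles were examined, and all 10 were among the 16647 genes listed in the count table. Canalicular export and bile lipid transport was represented by 4 genes, basolateral export by 4 and uptake by 2.

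The libraries were made from livers of male mice of the humanized PXR-CAR-CYP3A4/3A7 line, in which human PXR, CAR and CYP3A genes stand in for the mouse genes, with 5 mice in the control (vehicle-treated) group and 5 in the MI-883-treated group. All mice were aged 10 to 15 weeks when HFD began, ate HFD for 8 weeks and remained on it during treatment. MI-883, a ligand of human CAR and PXR, was given by oral gavage at 5 mg/kg 3 times per week for 4 weeks, and the controls received the vehicle of DMSO, PEG300 and corn oil on the same schedule. The comparison addressed whether the mRNA of bile acid transporters differed between MI-883-treated and control livers on this diet. Library totals lay between 23513665 and 36221514 counts, and the difference in totals between the groups did not pass an exact two-sided permutation test (P = 0.111). The known CAR target Cyp2b10 lay between 24.4 and 44.3 CPM (counts scaled to a common library size by TMM) in control livers and between 634 and 1375 CPM in MI-883-treated livers. The 5 hepatocyte markers (Alb, Ttr, Apob, Cps1 and Asgr1) summed to 65360 to 74850 CPM in control and 57540 to 67860 CPM in MI-883-treated livers, and of 28 tested marker genes of 6 liver and blood cell types edgeR and DESeq2 called 0. In edgeR 5 of the 28 had an unadjusted P under 0.05, as had 15.6% of all tested genes. Levels are from whole liver, in which fewer cells of a type and less RNA per cell cannot be told apart.

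MI-883 treatment was accompanied by higher mRNA of Abcc4 and Abcc3, both basolateral exporters, while no canalicular exporter or uptake carrier passed the test. Abcc4 was 5.48-fold higher (95% interval 4.25 to 7.06, n = 5 livers per group) and Abcc3 was 1.38-fold higher (1.20 to 1.58, n = 5). A gene was tested if it had at least 60 counts summed over the 10 livers, which held for 13219 genes and for 9 of the 10 transporters. In edgeR's quasi-likelihood test, adjusted by Benjamini-Hochberg over all tested genes, 2 of the 9 transporters had an adjusted P under 0.05, both higher, against 1.03% of all tested genes called in either direction and 0.764% called higher. No transporter was called lower, where 0.265% of all tested genes were, and apart from Abcc3 and Abcc4 none had an unadjusted P under 0.05 in edgeR or was called by DESeq2. The Wald test of DESeq2 called the same 2 transporters, with 3.5% of all genes called. CPM of the groups did not overlap for these 2 transporters, whereas 3.98% of all tested genes had groups without overlap.

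**Figure D1:**
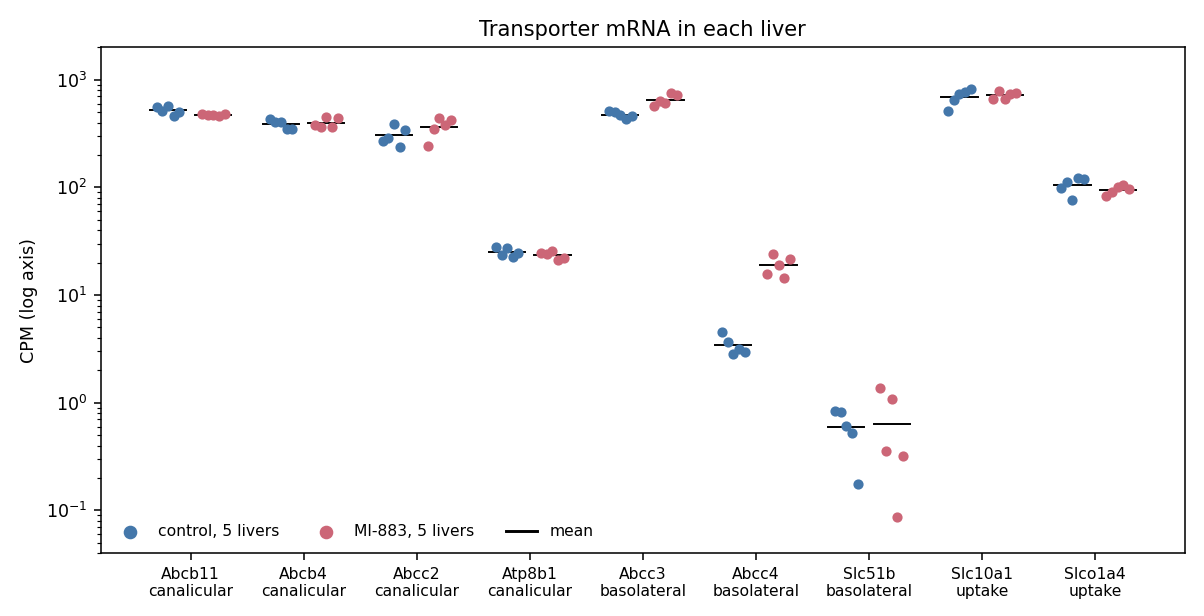
CPM of the 9 tested transporters (log axis) in each of 5 control and 5 MI-883-treated livers, with the group mean as a line. Every MI-883-treated liver lies above every control liver for Abcc3 and Abcc4, and the groups overlap for the other 7 genes.

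**Figure D2:**
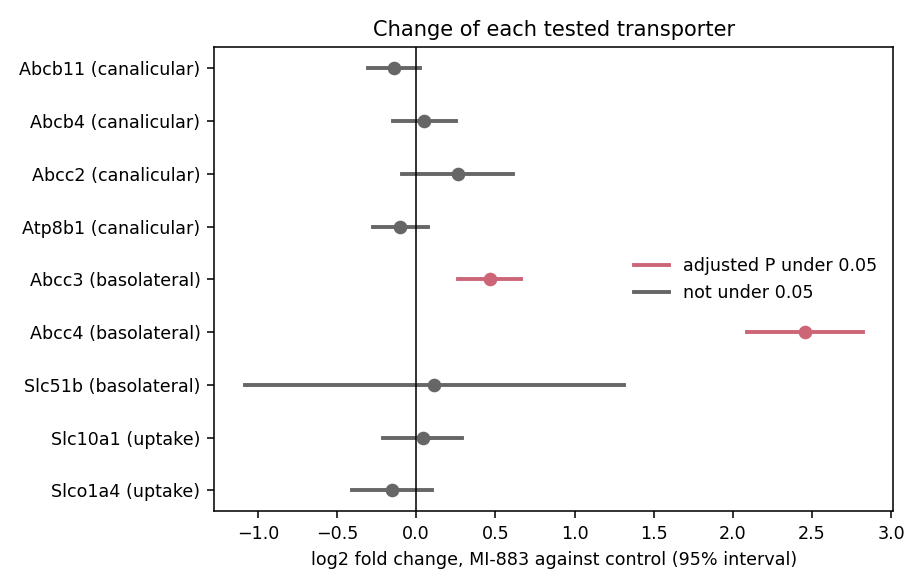
Log2 fold change of MI-883-treated against control livers with its 95% interval from edgeR, 5 livers per group. The intervals of Abcc3 and Abcc4 lie above 0, the interval of Slc51b reaches from -1.08 to 1.31, and those of the other 6 genes include 0.

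Abcc4 (MRP4, Entrez 239273), an exporter of bile acid conjugates, sulfated steroids and cyclic nucleotides, lies on the minus strand of GRCm38 chromosome 14 at 118482692 to 118707856. In the control livers it was at 4.55, 3.66, 2.82, 3.13 and 2.98 CPM in replicates 1 to 5. In MI-883-treated livers it was at 15.7, 24.0, 18.8, 14.3 and 21.8 CPM. The lowest treated liver was thus above the highest control liver, and the counts behind these values were between 68 and 163 in controls and between 329 and 615 after treatment. The log2 fold change was 2.45 ± 0.17 (SE, 95% interval 2.09 to 2.82), with an adjusted P of 7.2e-06 in edgeR. Permuting the livers exactly, two-sided on mean log2 CPM, gave P = 0.00794, the smallest value that arrangements of 5 against 5 livers allow. Abcc4 kept an adjusted P under 0.05 in 10 of 10 edgeR fits that each left out 1 liver, with log2 fold changes of 2.36 to 2.58.

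Sequences before 2 starts of Abcc4 are shown because its mRNA rose most, beside those of Abcb11 and Abcc2, canalicular genes that did not pass the test. RefSeq promoter entries for GRCm38.p6 were used for 8 of the 10 transporters, without Abcc3 and Atp8b1, and 250 bases upstream of each start were searched on both strands for the 6-base motifs AGGTCA and AGTTCA, which many nuclear receptors bind, usually as repeats. Capitals mark a match, so that TGACCT and TGAACT are matches on the other strand. The windows of Abcc4, for which these entries give 2 starts, lie at chr14:118706220-118706469 and chr14:118676932-118677181, both on the minus strand. Both lie inside the gene span given above. On this strand that span begins at 118707856, and the bases before that position were not searched. The windows of Abcb11 and Abcc2 lie at chr2:69342617-69342866 (minus strand) and chr19:43782058-43782307 (plus strand).
Abcc4 first start: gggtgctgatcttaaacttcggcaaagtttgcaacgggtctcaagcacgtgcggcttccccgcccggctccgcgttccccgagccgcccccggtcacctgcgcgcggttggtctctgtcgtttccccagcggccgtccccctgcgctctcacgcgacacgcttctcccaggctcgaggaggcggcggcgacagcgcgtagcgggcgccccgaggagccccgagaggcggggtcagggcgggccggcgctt
Abcc4 second start: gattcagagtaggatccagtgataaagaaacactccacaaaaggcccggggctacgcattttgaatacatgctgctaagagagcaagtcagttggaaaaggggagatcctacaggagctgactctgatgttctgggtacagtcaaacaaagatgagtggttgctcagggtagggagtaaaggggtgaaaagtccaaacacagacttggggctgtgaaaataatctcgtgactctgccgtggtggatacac
Abcb11: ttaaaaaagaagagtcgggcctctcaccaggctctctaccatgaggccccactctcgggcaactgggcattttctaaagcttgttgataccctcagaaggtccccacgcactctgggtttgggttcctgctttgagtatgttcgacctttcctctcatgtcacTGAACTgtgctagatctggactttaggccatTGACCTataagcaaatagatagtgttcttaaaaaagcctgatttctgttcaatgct
Abcc2: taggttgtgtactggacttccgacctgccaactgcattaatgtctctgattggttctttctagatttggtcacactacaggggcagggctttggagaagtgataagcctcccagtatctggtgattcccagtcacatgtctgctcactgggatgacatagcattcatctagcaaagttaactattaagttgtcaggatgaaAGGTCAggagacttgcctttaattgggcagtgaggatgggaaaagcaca

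Neither Abcc4 window held AGGTCA or AGTTCA, while the Abcb11 window held 1 of each, 56 and 87 bases before the start, and the Abcc2 window held 1 AGGTCA 49 bases before it. Windows of Abcb4, Slc51a, Slc51b and the second start of Slc10a1 held 1 match each, and windows of Slco1a4 and the first start of Slc10a1 held none. Over 32851 windows of all genes, 24.2% held either motif and 0.0244% held a direct repeat 4 bases apart, which none of the transporter windows did. The first Abcc4 window was 72.0% G and C, against 46.4% for Abcb11 and 45.6% for Abcc2. These matches describe the letters in the windows, and binding was not measured here. Only exact matches within 250 bases of a start were searched, so sites farther away or with other letters would be missed.

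Abcc3 (MRP3, Entrez 76408; chromosome 11, 94343295 to 94393017), which exports glucuronides and bile acid conjugates toward blood, was by far the more abundant of the basolateral exporters. It was at 513, 501, 471, 428 and 465 CPM in control replicates 1 to 5. In MI-883-treated livers it was at 571, 635, 604, 752 and 716 CPM. The groups did not overlap, with control replicate 1 and treated replicate 1 nearest to each other. The log2 fold change was 0.46 ± 0.09 (SE, 95% interval 0.27 to 0.66), with an adjusted P of 0.0282 in edgeR and 4.49e-05 in DESeq2. The exact permutation test again gave the smallest possible P of 0.00794. The edgeR call was sensitive to the livers included. It held in 3 of 10 fits that left out 1 liver and was lost without control replicates 2, 3, 4 or 5 or MI-883 replicates 2, 4 or 5, with adjusted P between 0.0228 and 0.0908 over the 10 fits and log2 fold changes between 0.41 and 0.51.

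Slc51a and Slc51b (OSTalpha and OSTbeta, Entrez 106407 and 330962) form a heterodimer that exports bile acids across the basolateral membrane, best known from the ileum and sparse in mouse liver. Slc51a was counted 1, 2, 0, 2 and 0 times in the control livers and 0, 2, 1, 0 and 0 times in the treated livers. All 10 values are at or under the floor of 3 counts, so no fold change is given and a difference was not detectable at this depth. Slc51b had 30, 26, 15, 18 and 4 counts in control livers and 40, 8, 29, 2 and 9 counts in treated livers. The treated livers spread on both sides of the controls, with a coefficient of variation of 85.8% against 45.3%. The log2 fold change of Slc51b was 0.12 (95% interval -1.08 to 1.31, adjusted P = 0.940 in edgeR), an interval that leaves room for a change of more than 1 in either direction, and its sign turned without control replicate 5 (-0.091), without MI-883 replicate 1 (-0.37) or without MI-883 replicate 3 (-0.14). Exons on the opposite strand overlap 17.7% of the exon bases of Slc51a (Pcyt1a) and 12.8% of those of Slc51b (Rasl12), and since the strand setting of the counting is not given in the sources used here, reads of these neighbours cannot be told apart from theirs.

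Markers of bile duct cells were set beside Slc51b. The summed CPM of 6 cholangiocyte markers (Krt19, Krt7, Epcam, Sox9, Spp1 and Cftr) was 117, 73.0, 27.4, 34.5 and 25.1 in control livers and 150.5, 52.7, 190.1, 35.1 and 52.4 in treated livers, with overlap between the groups. Spp1 made up most of this sum, at 20.3 to 180 CPM over the 10 livers, and none of the other markers exceeded 5.37 CPM. The treated livers with the highest sums, replicates 1 and 3, were also those with the most Slc51b, while Krt7 was highest in treated replicate 5. This relation was examined after the values were seen, over the 10 livers and for the 7 tested transporters whose groups overlap, using the mean log2 CPM of the 5 markers that were tested, so its P values are not independent of the observation above. For Slc51b, Pearson's r was 0.745 (permutation P = 0.0123, adjusted over 7 relations 0.0862) and Spearman's rho was 0.758 (permutation P = 0.0154, adjusted 0.108). Without the 2 livers farthest from the median of the markers, r was 0.539. For the hepatocyte genes Abcb4 and Slc10a1, r was 0.670 and -0.669 (permutation P = 0.0427 and 0.0312), rho was 0.612 and -0.624 (permutation P = 0.0683 and 0.0605), and r was 0.801 and -0.760 without those 2 livers. No relation had an adjusted P under 0.05, so a relation of Slc51b or another transporter with these markers was not established, and correlations over the 5 livers of a group were not computed. Among the treated livers, replicates 1 and 3 also had the highest summed markers of stellate cells (402.2 and 322.0 CPM) and Kupffer cells (320.1 and 195.1 CPM). Summed markers of sinusoidal endothelial cells, red blood cells and hepatocytes were lowest in treated replicate 3. The pattern was thus not particular to bile duct markers, and relations of Slc51b with the other markers were not tested. Of 4 enterocyte markers (Lct, Sis, Fabp6 and Cdx2), the summed level did not exceed 0.174 CPM in any liver.

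**Figure D3:**
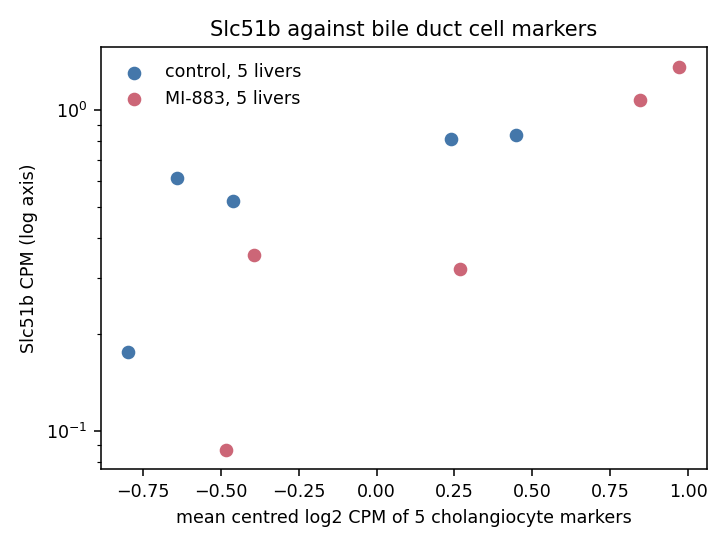
Slc51b CPM (log axis) against the mean log2 CPM of 5 cholangiocyte markers, each centred on its own mean, in 5 control and 5 MI-883-treated livers. The points of the groups are mixed, and MI-883 replicates 1 and 3, at the right, have the highest Slc51b.

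Among canalicular genes, Abcb11 (BSEP, Entrez 27413; chromosome 2, 69238282 to 69342616), the bile salt export pump, was at 558, 517, 573, 456 and 498 CPM in control livers. After MI-883 it was at 482, 473, 468, 458 and 476 CPM. All 5 treated livers were below the control median, but the groups overlapped at control replicate 4. The log2 fold change was -0.14 (95% interval -0.31 to 0.02, adjusted P = 0.387 in edgeR, exact permutation P = 0.0635), so that these data allow a fall to 0.809-fold of the control level and a rise to 1.02-fold. The coefficient of variation was 9.03% in control and 1.90% in treated livers, a difference in spread that was not tested.

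Abcc2 (MRP2, Entrez 12780; chromosome 19, 43782308 to 43838332) exports bilirubin glucuronides and other conjugates into bile. It was at 271, 286, 389, 240 and 342 CPM in control livers and at 243, 345, 443, 376 and 425 CPM in treated livers. The coefficient of variation was 19.5% in control and 21.6% in treated livers, 4 of 5 treated livers were above the control median, and treated replicate 1 was near the lowest control. The log2 fold change was 0.26 (95% interval -0.09 to 0.61, adjusted P = 0.455 in edgeR), which leaves room for a rise of up to 1.53-fold, larger than the point estimate for Abcc3.

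Abcb4 (Entrez 18670; chromosome 5, 8893614 to 8959226), which moves phosphatidylcholine into bile, ranged over 350 to 429 CPM in control and 363 to 455 CPM in treated livers. Its log2 fold change was 0.05 (95% interval -0.15 to 0.25, adjusted P = 0.820 in edgeR). The treated livers with the most Abcb4, replicates 3 and 5, were also those with the most Abcc2. Atp8b1 (Entrez 54670), a flippase that keeps the canalicular membrane ordered, was the least abundant of the canalicular genes at 22.6 to 27.9 CPM in control and 21.2 to 25.6 CPM in treated livers. Its log2 fold change was -0.10 (95% interval -0.27 to 0.07, adjusted P = 0.578 in edgeR).

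Slc10a1 (NTCP, Entrez 20493; chromosome 12, 80953185 to 80968705), the sodium-dependent carrier for conjugated bile acids, was at 517, 651, 737, 768 and 819 CPM in control livers. In treated livers it was at 664, 779, 656, 741 and 752 CPM, inside the range of the controls. The log2 fold change was 0.04 (95% interval -0.21 to 0.29, adjusted P = 0.895 in edgeR), and it was -0.049 without control replicate 1, the lowest liver. Slco1a4 (OATP1A4, Entrez 28250; chromosome 6, 141805438 to 141856284), a sodium-independent carrier of organic anions and bile acids, ranged over 76.1 to 121 CPM in control and 83.0 to 104 CPM in treated livers. Every treated liver was below the control median of Slco1a4, as for Abcb11, but the groups overlapped. The log2 fold change of Slco1a4 was -0.15 (95% interval -0.41 to 0.10, adjusted P = 0.558 in edgeR).

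To compare levels between genes, CPM was divided by the exon length of each gene in kilobases. In control livers the order of these levels was Slc10a1 at 318 ± 53.8 (S.D., n = 5), Abcb11 at 101 ± 9.13, Abcc3 at 83.5 ± 5.87, Abcb4 at 41.2 ± 3.72, Abcc2 at 35.8 ± 6.96, Slco1a4 at 16.5 ± 2.93, Atp8b1 at 3.75 ± 0.359, Slc51b at 0.835 ± 0.379 and Abcc4 at 0.537 ± 0.110 CPM per kilobase, with Slc51a last at under 0.02 in every control liver. Livers overlapped between the neighbours Abcb11 and Abcc3, Abcb4 and Abcc2, and Slc51b and Abcc4, while the other neighbours were apart. After treatment Abcc3, at 115 ± 13.3 CPM per kilobase, stood above Abcb11, at 91.7 ± 1.74, in every liver, and Abcc4, at 2.96 ± 0.636, overlapped with Atp8b1, at 3.50 ± 0.264. The place of Abcb4 depends on the length used, since it has 94.9 CPM per kilobase in control livers when divided by its longest transcript alone.

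The levels of the canalicular genes summed to 182 ± 17.1 CPM per kilobase in control and 181 ± 12.4 in treated livers, a ratio of 0.994. Mean levels within this sum were lower after treatment for Abcb11 (101 and 91.7) and Atp8b1 (3.75 and 3.50). They were higher for Abcc2 (35.8 and 42.95) and Abcb4 (41.2 and 42.7), and none of the 4 genes passed the test. The basolateral exporters summed to 84.8 ± 6.20 and 119 ± 12.6, a ratio of 1.40, with 76.3 to 92.0 in the control livers and 104.6 to 134 in the treated livers. The 2 uptake carriers summed to 334 ± 54.7 and 342 ± 25.3, a ratio of 1.02. Slc10a1 made up most of this sum, at 318 and 327 CPM per kilobase. Other sinusoidal carriers, such as Slco1b2 at 1343 CPM in control livers, are not in it. The basolateral sum was thus the one whose groups did not overlap, and these sums are given without a test because the genes were chosen with earlier results known. Abcc3 made up 98.4% of the basolateral sum in control and 96.7% in treated livers and accounted for 92.7% of its rise. Abcc4, although its fold change was larger, went from 0.630% to 2.51% of that sum and accounted for 7.12% of the rise. The median log2 fold change was -0.02 over the 4 canalicular genes, 0.46 over the 3 tested basolateral genes and -0.06 over the 2 uptake genes, beside 0.005 over all tested genes.

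**Figure D4:**
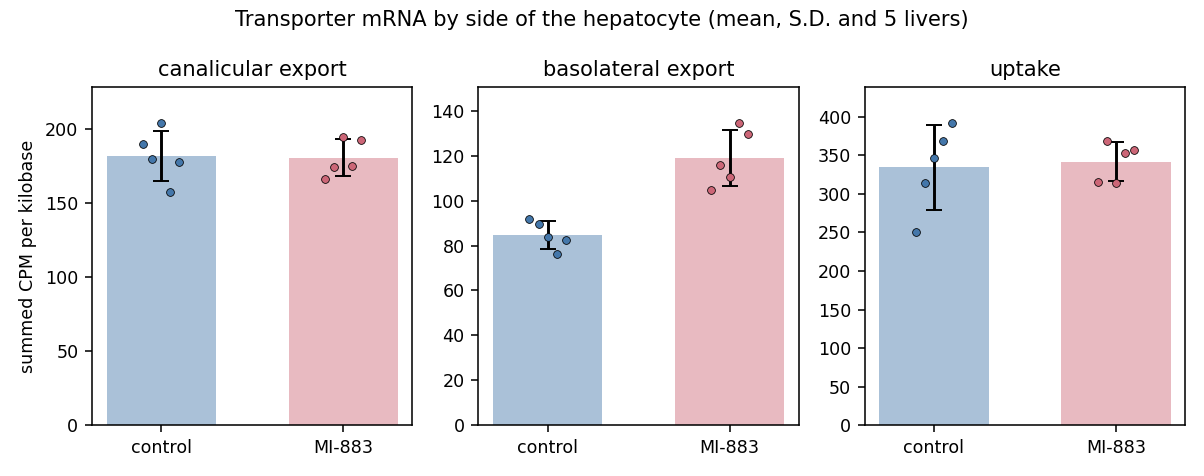
Summed CPM per kilobase of the canalicular (4 genes), basolateral (4 genes) and uptake (2 genes) transporters, with points for 5 control and 5 MI-883-treated livers, bars for the mean and error bars for the S.D. Only in the basolateral panel, of these 3, do the groups not overlap.

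Ratios of 2 transporters within a liver do not depend on how libraries were scaled. The ratio of Abcc3 to Abcb11 in CPM per kilobase was 0.831, 0.874, 0.742, 0.847 and 0.845 in control livers and 1.07, 1.21, 1.17, 1.48 and 1.36 in treated livers. The level of Abcc3 was thus below that of Abcb11 in 5 of 5 control livers and above it in 5 of 5 treated livers. The ratio of Abcc4 to Abcb11 was 0.00532 ± 0.000981 in control and 0.0323 ± 0.00676 in treated livers, also without overlap. The ratio of Abcc3 to the canalicular exporter of similar substrates, Abcc2, was 2.40 ± 0.444 and 2.77 ± 0.546 and overlapped between the groups, and so did that of Abcc3 to Slc10a1 (0.272 ± 0.0702 and 0.352 ± 0.0300). Abcc4 and Abcc3 did not rise by the same factor, since the ratio of Abcc3 to Abcc4 went from 159 ± 23.3 to 40.4 ± 11.1 with no overlap.

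**Figure D5:**
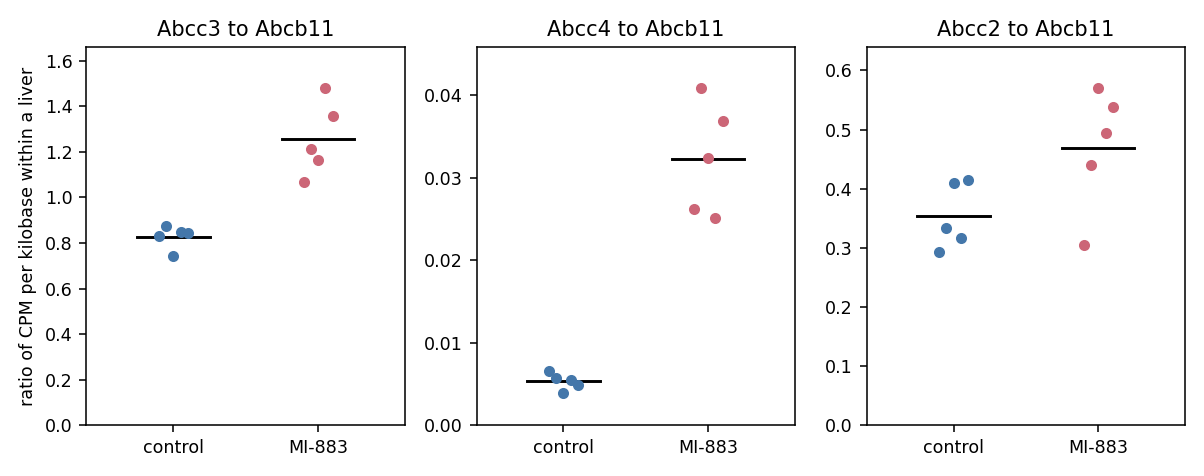
Ratios of Abcc3, Abcc4 and Abcc2 to Abcb11 in CPM per kilobase within each of 5 control and 5 MI-883-treated livers, with the mean as a line. The ratios of Abcc3 and Abcc4 do not overlap between the groups, and those of Abcc2 do.

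Genes related to these transporters were mostly not called. Of 13 tested genes among 14 other bile acid and bile lipid transporters, edgeR and DESeq2 called 0, with 3 at an unadjusted P under 0.05 (15.6% of all tested genes) and a median log2 fold change of -0.04. The most abundant of them in CPM were the sinusoidal carriers Slco1b2, at 1343 ± 146 and 1275 ± 77.6 CPM in control and treated livers (log2 fold change -0.08), and Slco1a1, at 317 ± 113 and 271 ± 65.4 CPM (log2 fold change -0.23). Of 6 other tested Abcc genes, edgeR and DESeq2 again called 0, with 1 at an unadjusted P under 0.05 (15.6% of all tested genes) and a median log2 fold change of 0.27. Among them Abcc6, a hepatocyte transporter needed for ATP release, was at 204 ± 18.7 and 202 ± 25.4 CPM (log2 fold change -0.01), and Abcc9, a subunit of potassium channels, was at 22.2 ± 3.06 and 27.7 ± 1.74 CPM (log2 fold change 0.32, adjusted P = 0.126 in edgeR).

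Of 12 genes that anchor or deliver canalicular proteins, 1 was called higher and 0 lower (1.03% of all tested genes were called), and 6 had an unadjusted P under 0.05 (15.6% of all tested genes). The 12 log2 fold changes had a median of 0.17. The called gene was Pdzk1, a PDZ-domain scaffold that binds Abcc2 and other apical transporters. It rose from 110 ± 6.46 to 139 ± 11.4 CPM without overlap between the groups (log2 fold change 0.34 ± 0.07 SE, adjusted P = 0.0415 in edgeR), and the call held in 1 of 10 fits that left out 1 liver. DESeq2 called 2 genes of this list, Pdzk1 and Myo5b, the latter named after its values were seen. Myo5b, a motor for recycling endosomes whose loss in patients causes cholestasis, was at 27.0 ± 0.910 CPM in control and 34.5 ± 4.33 CPM in treated livers (adjusted P = 0.0676 in edgeR). Groups did not overlap for 3 of the 12 genes (3.98% of all tested genes), which were Pdzk1, Myo5b and, in the other direction, Rdx. Rdx, or radixin, links canalicular proteins to actin and was at 234.5 ± 17.3 and 209 ± 11.0 CPM (log2 fold change -0.17, adjusted P = 0.279 in edgeR), and it was named after its values were seen.

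Of 14 tested genes among 16 for bile acid sensing and nuclear receptors, edgeR called 0, with 4 at an unadjusted P under 0.05 (15.6% of all tested genes), a median log2 fold change of -0.04 and 1 called by DESeq2. The most abundant were Hnf4a, at 430 ± 60.1 and 429 ± 69.4 CPM, and Rxra, the partner of CAR, PXR and FXR, at 411 ± 44.5 and 405 ± 57.0 CPM, with log2 fold changes of -0.003 and -0.02. The gene called by DESeq2, named after its values were seen, was Ahr, the aryl hydrocarbon receptor, at 39.4 ± 10.7 and 64.1 ± 14.1 CPM without overlap (adjusted P = 0.109 in edgeR and 0.0145 in DESeq2). Mouse Nr1i2 and Nr1i3 have human counterparts in this line, and human transcripts were not analysed here. Of 14 genes for bile acid synthesis and conjugation, edgeR called 0, with 3 at an unadjusted P under 0.05 (15.6% of all tested genes) and a median log2 fold change of -0.005. DESeq2 called 2 of them. These were Scp2 and Cyp2c70, whose groups did not overlap, where 3.98% of all tested genes had groups without overlap. Scp2, a peroxisomal thiolase and lipid carrier, was at 5131 ± 176 and 4524 ± 136 CPM (adjusted P = 0.291 in edgeR and 0.0049 in DESeq2). Cyp2c70, the mouse enzyme of muricholic acid synthesis, was at 334 ± 63.2 and 223 ± 44.5 CPM (adjusted P = 0.103 in edgeR and 0.0122 in DESeq2). Scp2 and the acyl-CoA synthetase Slc27a2, at 1832 ± 150 and 1783 ± 200 CPM, were the most abundant of the list, and Cyp2c70 was named after its values were seen.

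The genes whose pattern over the 10 livers was most like that of Abcc4 were looked for among 11612 tested genes of at least 1 CPM on average. Likeness was measured as the root mean square difference of log2 CPM after centring each gene on its mean. The 5 nearest genes to Abcc4 were Ugt1a9, Ptges, Mesp2, Cyp2c55 and Cyp2c50, at 0.359 to 0.457, where the median over all compared genes was 1.26. Ugt1a9 forms glucuronides and went from 14.3 to 60.2 CPM, a value that is uncertain because the Ugt1a genes share exons. Ptges, a prostaglandin E synthase, went from 1.78 to 6.89 CPM. Cyp2c55 and Cyp2c50, cytochromes of a family with close paralogs, went from 22.4 to 206 CPM and from 499.5 to 1874 CPM, and Mesp2 went from 0.660 to 2.60 CPM. The 5 nearest genes to Abcc3 were Sh3bp2, Agap1, Dock8, Caskin2 and Pla2g6, at 0.0642 to 0.101 (median over all compared genes 0.319), with log2 fold changes from 0.30 for Pla2g6 to 0.46 for Dock8. No gene was among the 5 nearest of both. The measure keeps the size of a change, which was larger for Abcc4 than for Abcc3, so a shared gene was not to be expected.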

How the data were processed

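Liver RNA of 10 mice was made into directional libraries (NEBNext Ultra II) and sequenced as paired ends on a NovaSeq6000. Per the labels and the paper, the authors used fastp 0.23.0 and STAR with the mm10 (GRCm38) genome, and made the gene counts with featureCounts. Versions of STAR and featureCounts, the annotation and the strand setting are not given in the sources used here. The authors deposited raw counts per Entrez gene, without normalization or filter, and 16644 of 16647 genes were matched to RefSeq symbols.

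Groups followed the condition in the labels. Each library is labelled as a separate liver. A gene entered the test with 60 or more counts over all livers together. Groups were compared by edgeR 4.0.16 (R 4.3.3) with TMM factors, a model holding condition alone, the quasi-likelihood test and a Benjamini-Hochberg threshold of 0.05. The paper's methods filter at 60 counts in all samples and use DESeq2, and both were run as alternatives. The standard error is the size of the log2 fold change divided by the square root of F, and 95% intervals use the t quantile at its degrees of freedom. CPM uses TMM-scaled library sizes, and lengths are the union of exons in GENCODE M21. The floor of 3 counts is about 0.110 CPM and covers counting error only. Of the transporters, Abcb4 and Slco1a4 share 0.288% and 0.640% of 100-base stretches with other genes (Gm35082 and Slco1a5), and the others share 0%. On the opposite strand, 2.64% of the exon bases of Abcb11 overlap Gm13613 and 0.369% overlap Gm13614.

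The transporters, gene lists and markers were chosen with earlier results of these data known, and 1 marker gene is not reported here. Genes named from a list are those called by edgeR or, where none was, its 2 most abundant members in CPM. The 5 genes nearest to Abcc3 and Abcc4 and Cyp2b10 were also named. Alternatives were DESeq2 1.42.0 without independent filtering, its size factors, total counts, other count filters, the replicate number as a block, 1 surrogate variable (sva 3.50.0) and leaving out each liver. The fit was tested on simulated data.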

Additional observations from a re-analysis of the deposited data

How the results depend on the processing

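Depth limits the Slc51 genes. Slc51a was at or under 3 counts in every liver, and Slc51b, at 2 to 40 counts, could not be given a value when 60 counts in every liver were required. Scaling by total counts moved the median of all genes by 0.044 on the log2 scale, and no transporter changed its side of the threshold under it, under DESeq2's size factors or under another filter it passed. Library preparation batches are not given in the sources used here.

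All tested genes called numbered 136 in edgeR, 463 in DESeq2, 89 with the replicate block and 254 with 1 surrogate variable, and 62 to 208 when 1 liver was left out. The cause was not tested. Transporters called numbered 2, but 1 with the replicate block, and 1 to 2 when 1 liver was left out. The block ended the call of Abcc3 (log2 fold change 0.46, adjusted P = 0.0948 in edgeR), and leaving out 1 liver gave 0.41 to 0.51. Slc51b turned to -0.046 with the replicate block and to -0.56 with the surrogate variable, and lay between -0.37 and 0.38 when 1 liver was left out, while Slc10a1 lay between -0.049 and 0.105. For scaffold and trafficking genes, 1 was called in edgeR, 2 in DESeq2, 0 without a filter, 0 with the block, 3 with the surrogate variable and 0 to 1 when 1 liver was left out. For sensing genes, 1 was called in DESeq2 and 1 with the surrogate variable. For synthesis genes, 2 were called in DESeq2 and 0 to 1 when 1 liver was left out, and for other Abcc genes 0 to 1. The last count rose without control replicate 2, and that of synthesis genes without control replicate 1. The call of Abcc4 held under every alternative listed here.

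Replicate numbers did not pair the livers. Correlations of same-numbered livers were 0.36, -0.121, -0.102, 0.0761 and 0.079, and none of the livers was most like its own number, so that the block uses a shared number only.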
